A study of Mus musculus with 54 samples.

Results

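Gene expression in testes of compound mutant (CM) mice was compared with that of wild-type (WT) mice, using the whole testis RNA-seq counts. The comparison rests on 6 libraries, 3 of each genotype, out of 54 samples in the series, and the libraries were chosen by their labelled genotype alone. WT mice were *Ctcf*+/+ *Boris*+/+, and CM mice, titled DKO in the sample labels, were *Ctcf*+/- *Boris*-/-. CTCF HET mice (*Ctcf*+/- *Boris*+/+) and BORIS KO mice (*Ctcf*+/+ *Boris*-/-), with 3 whole testis libraries each, are set beside them in places. The paper derives the CM line from CTCF HET females mated with BORIS KO males, without listing the generations. All mice were C57BL/6 males aged 3 months, the alleles were carried in every cell of the body, and each library was made from a preparation that pooled 4 mice. The tables are named whole testis, but the sample protocol describes decapsulated testes digested with collagenase and trypsin into a cell suspension enriched in germ cells, from which ribosomal RNA was depleted.

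CTCF is a zinc finger protein that binds DNA, insulates chromatin domains and, together with cohesin, anchors chromatin loops. BORIS, encoded by *Ctcfl*, is its paralog with a very similar DNA-binding domain and is normally expressed in male germ cells. In the seminiferous tubules spermatogonia divide, enter meiosis as spermatocytes and become haploid round spermatids, which elongate into sperm, while Sertoli cells nurse them inside the tubule and Leydig cells make testosterone between the tubules.

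CTCF binds near a transcription start at several of the genes described here, so the sequences under those peaks are shown first. They are the 6 called genes among the loci displayed by the study whose WT CTCF peak overlapped a BORIS peak and had its summit within 100 bp of an annotated start. Each line gives 101 bases of mm9 around the WT CTCF summit, 5′ to 3′ on the strand of the gene, with capitals marking variants of the core of the CTCF motif on either strand. The letters searched were AGAGGGC in the first variant, AGATGGC in the second variant, AGGGGGC in the third variant and AGGTGGC in the last. The second variant also lies within the motif of another zinc finger protein, YY1.
*Prss50*, chr9:110760371-110760471, plus strand, summit 50 bp upstream of the start, no CTCF peak in CM: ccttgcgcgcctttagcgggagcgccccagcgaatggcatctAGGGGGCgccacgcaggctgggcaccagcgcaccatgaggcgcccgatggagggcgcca
*Irak1*, chrX:71269208-71269308, minus strand, summit 1 bp upstream of the start, no CTCF peak in CM: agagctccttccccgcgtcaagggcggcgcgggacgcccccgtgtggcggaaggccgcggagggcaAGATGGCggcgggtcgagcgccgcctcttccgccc
*Ssr4*, chrX:71032285-71032385, plus strand, summit 32 bp upstream of the start, no CTCF peak in CM: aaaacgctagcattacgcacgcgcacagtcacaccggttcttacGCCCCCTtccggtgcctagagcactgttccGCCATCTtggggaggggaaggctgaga
*Mfi2*, chr16:31878785-31878885, plus strand, summit 61 bp upstream of the start, CTCF peak kept in CM: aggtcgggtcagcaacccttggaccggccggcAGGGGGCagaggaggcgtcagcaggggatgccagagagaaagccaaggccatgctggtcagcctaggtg
*Prss38*, chr11:59189124-59189224, minus strand, summit 15 bp upstream of the start, CTCF peak kept in CM: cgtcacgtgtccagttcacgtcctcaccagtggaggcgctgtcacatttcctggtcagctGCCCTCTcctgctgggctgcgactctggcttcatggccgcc
*Ankrd52*, chr10:127814050-127814150, plus strand, summit 71 bp upstream of the start, CTCF peak kept in CM: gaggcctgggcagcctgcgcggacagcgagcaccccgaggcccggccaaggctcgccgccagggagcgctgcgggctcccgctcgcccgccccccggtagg
*Ankrd52* holds none of these letters in this window. Windows of the same length around all 34625 WT CTCF summits held a match in 55.4% of cases, with 70.3% of the peaks kept in CM and 36.3% of the others. The kept peaks were also taller in WT, with a median height of 1121 against 177 for the others. Match and height were not told apart. Windows centred on 1 start of each tested gene held a match in 12.5%.

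The libraries had 42055813, 16521394 and 12081830 counts in WT 1, 2 and 3 and 33899173, 14365210 and 10437683 in CM 1, 2 and 3. CM 1 stood apart: the correlation of its log2 levels with the WT libraries was 0.833 to 0.892, against 0.954 to 0.961 for CM 2, 0.911 to 0.923 for CM 3 and 0.967 to 0.981 among the WT libraries. The levels below are CPM, the counts scaled to the library total after TMM normalisation.

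The targeted genes were examined first. *Ctcf* was at 46.4, 42.5 and 44.0 CPM in the WT libraries and at 27.0, 28.1 and 24.8 CPM in the CM libraries. All CM libraries lay below all WT libraries (log2 fold change -0.74 ± 0.21 (SE), edgeR adjusted p = 0.0329), and *Ctcf* was not called because its change was under 2-fold. *Ctcfl* was too low to be tested, at 0.524, 0.621 and 0.745 CPM in WT and 0.197, 0.128 and 0.16 CPM in CM, again without overlap. *Rltpr*, whose annotated start lies 3.4 kb from the end of *Ctcf* on chromosome 8 (108210174 to 108222078, mm9), was at 1.69, 1.17 and 1.68 CPM in WT and 79.3, 51.6 and 42.2 CPM in CM, with the smallest p of all genes (log2 fold change 5.24 ± 0.36, edgeR adjusted p = 0.00225). With all 12 whole testis libraries scaled together, it stood at 80.3 ± 20.5 CPM (SD, n = 3) in CTCF HET and 1.33 ± 0.502 CPM (n = 3) in BORIS KO. The libraries whose labels carry the *Ctcf* mutation were thus the ones with high *Rltpr*. Of the 54 tested genes that start within 1 Mb of *Ctcf*, 13 were called higher and 4 lower, and of 20 around *Ctcfl* 1 was called lower, *Ankrd60*. A gene was called at an edgeR adjusted p under 0.05 and a fold change over 2, and of all tested genes 15.3% were called higher and 5.9% lower.

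Of 16378 genes tested, 3468 were called, with 2502 higher and 966 lower in CM. These are 21.2% of the tested genes. The 2 groups of libraries did not overlap for 7982 genes, or 48.7% of those tested, including 2467 of the genes called higher and 965 of those called lower. Genes that rose were mostly weakly expressed in WT, with a median of 3.45 CPM in WT and 11.4 CPM in CM, whereas genes that fell were well expressed, with a median of 89.5 CPM in WT and 37.7 CPM in CM. Large changes were upward: 722 genes rose and 53 fell by more than 4-fold. The median log2 fold change of all tested genes was 0.0035.

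**Figure D1:**
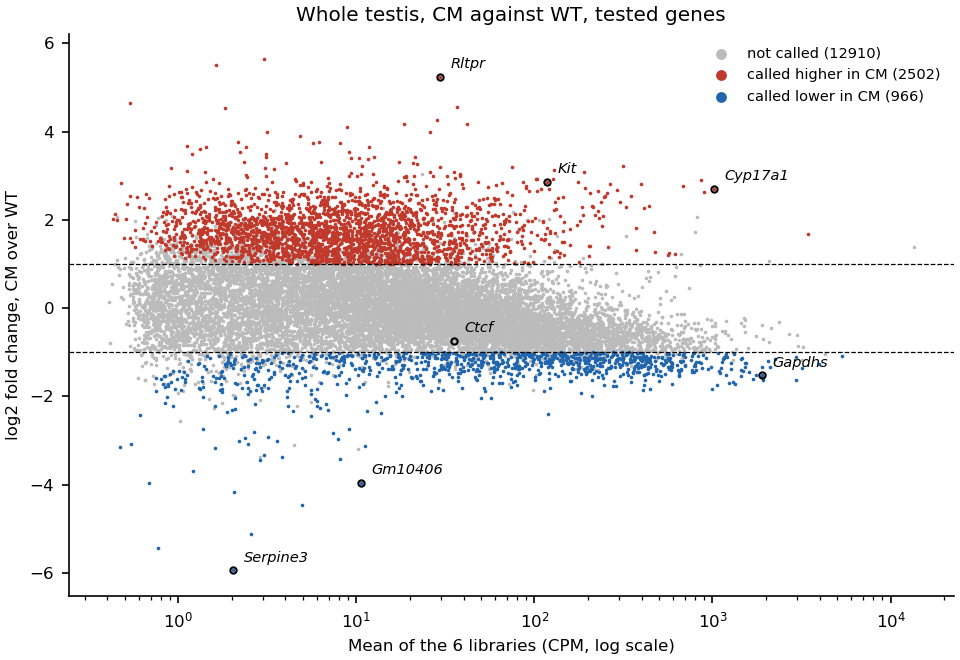
Each point is 1 of 16378 tested genes, placed by its mean level over the 6 libraries in CPM (log axis) and its log2 fold change of CM over WT, with dashed lines at 2-fold. The 2502 genes called higher (red) spread over low and middle levels, the 966 called lower (blue) lie mostly at high levels, and *Rltpr*, *Serpine3*, *Gm10406*, *Cyp17a1*, *Kit*, *Gapdhs* and *Ctcf* are circled.

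The 3 CM libraries differed in how far they stood from WT. Over the genes called higher, the median log2 ratio to the WT mean was 1.84 in CM 1, 0.87 in CM 2 and 1.51 in CM 3, and CM 2 was the library nearest to WT for 89.8% of them. Over the genes called lower the medians were -1.52, -1.0 and -1.21. In this fit, which did not use the replicate number, the number of calls was sensitive to single libraries. It was 1814 without WT 1, 11 without WT 2 and 3 without WT 3. Without CM 1, CM 2 or CM 3 it was 2764, 4383 and 4. Between 82.7 and 98.7% of the 3468 genes still differed by more than 2-fold in the same direction. These genes had been selected by their change in the same libraries, so that share is no independent check. With the replicate number as a block, edgeR called 3002 genes higher and 1418 lower, and 2942, 5490 and 4035 genes in all without the libraries numbered 1, 2 or 3.

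The genes with the smallest p among those that rose included steroid and kallikrein genes of the interstitium. *Cyp17a1*, a steroid hydroxylase of Leydig cells needed for testosterone synthesis, was at 267, 309 and 234 CPM in WT and 1939, 1165 and 2174 CPM in CM (log2 fold change 2.70 ± 0.31, edgeR adjusted p = 0.0151). *Klk1b24*, *Klk1b27* and *Klk1b21*, near-identical kallikrein genes between which reads may be shared, rose by 4.26 ± 0.49, 4.55 ± 0.55 and 4.18 ± 0.54 on the log2 scale. *Apoc1*, an apolipoprotein, was at 7.68, 3.38 and 1.58 CPM in WT and 60.9, 29.5 and 147 CPM in CM. These genes shared a pattern in which CM 2 was the lowest of the CM libraries and still above every WT library.

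Several other leading genes encode secreted or transport proteins. *C3*, the central complement component, was at 17.0, 13.8 and 12.1 CPM in WT and 110, 65.1 and 113 CPM in CM (log2 fold change 2.74 ± 0.30). *Htra1*, a secreted serine protease, rose from a mean of 7.49 to 63.4 CPM, *Timp1*, an inhibitor of matrix metalloproteinases, from 0.370 to 5.94 CPM, and *Aqp2*, a water channel, from 3.67 to 39.1 CPM. *Hao2*, a peroxisomal hydroxyacid oxidase, *Gm5424* and the small RNA gene *AF357425* completed the 10 genes that rose with the smallest p, at log2 fold changes of 3.22 ± 0.37, 3.21 ± 0.31 and 1.97 ± 0.22. The groups did not overlap for any of them.

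Among the genes that fell, some were close to absent in CM. *Serpine3*, a member of the serpin family of protease inhibitors, had 234 counts in the 3 WT libraries together and 4 in the CM libraries, a ratio of 67.4 after scaling (95% exact interval 26.0 to 249, counting error only). *Defb11*, a beta-defensin gene, had 92 counts in WT and 2 in CM, a ratio of 53.0 (14.3 to 444). *4933438B17Rik* went from 11.2, 6.55 and 10.7 CPM to 0.296, 0.574 and 0.481 CPM (log2 fold change -4.46 ± 0.42, edgeR adjusted p = 0.00856).

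*Gm10406*, which has near-identical copies so that its counts are uncertain, was at 23.7, 19.8 and 16.6 CPM in WT and 1.38, 1.47 and 0.963 CPM in CM (-3.96 ± 0.32). *Pcdha2*, a clustered protocadherin gene, fell from 44.4, 37.6 and 41.9 CPM to 10.8, 13.0 and 9.95 CPM (-1.87 ± 0.23). *Col2a1*, a fibrillar collagen gene, fell from 91.0, 71.2 and 80.5 CPM to 22.5, 22.1 and 14.4 CPM (-2.04 ± 0.26). All CM libraries lay below all WT libraries for each of these genes.

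*Ltk*, a receptor tyrosine kinase gene, and *Lrrc55* fell by 3.01 ± 0.40 and 2.43 ± 0.34 on the log2 scale, and *4921517D21Rik*, the most abundant of the leading genes, went from a mean of 758 to 240 CPM. *Cdca7l*, *4930479D17Rik*, *Gm16387*, *4930572K03Rik* and *4933408J17Rik* fell by between 2.84 and 3.41 on the log2 scale. For *4930479D17Rik* the WT libraries were themselves spread, at 27.7, 4.41 and 12.4 CPM, and the CM libraries at 0.667, 1.79 and 1.93 CPM lay below all of them.

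**Figure D2:**
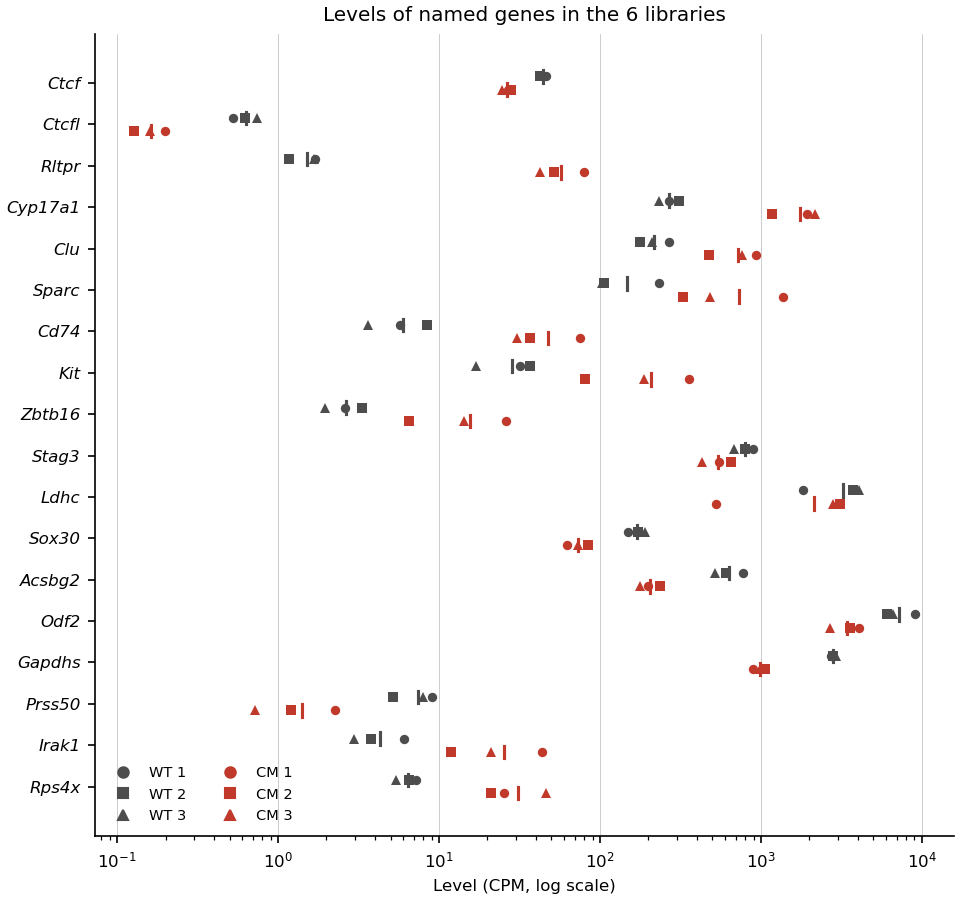
Levels of 18 named genes in CPM (log axis) in each library, with WT in grey above CM in red, a marker shape for each replicate number and a short line for the group mean. *Ctcf*, *Ctcfl*, *Acsbg2*, *Gapdhs* and *Prss50* are lower in all CM libraries, *Rltpr*, *Cyp17a1*, *Kit* and *Irak1* are higher in all of them, and the groups overlap for *Ldhc*.

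Genes were then grouped by cell type and stage. The counts below are to be set against all tested genes, of which 15.3% were called higher and 5.9% lower. A list with shares near these differs little from all tested genes in its calls. In bulk RNA, fewer cells of a type cannot be told apart from less RNA per cell. Spermatogonial genes were mixed. Of 11 tested genes of undifferentiated spermatogonia 3 were called higher and 1 lower (median log2 fold change 0.06), and of 10 genes of differentiating spermatogonia 2 were higher (0.40). *Zbtb16*, a transcription factor of spermatogonial stem cells, was at 2.62, 3.31 and 1.96 CPM in WT and 26.2, 6.51 and 14.4 CPM in CM (log2 fold change 2.57 ± 0.50, edgeR adjusted p = 0.0165). *Ccnd2*, a D-type cyclin, rose from 2.21, 2.41 and 2.14 CPM to 26.2, 8.61 and 18.9 CPM. *Lhx1*, another gene of the stem cell pool, fell from a mean of 4.29 to 1.34 CPM, and *Gfra1* and *Id4*, 2 defining markers of that pool, had log2 fold changes of -0.40 ± 0.34 and -0.20 ± 0.43 that did not pass the test. *Etv5*, the transcription factor gene with the highest level of that list, rose by 1.03 ± 0.27, while *Dmrtb1*, which controls entry into meiosis, was at -0.90 ± 0.24 and under the fold threshold. *Zbtb16* and *Ccnd2* are also expressed outside the germ line, and which cells carried them was not tested.

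None of the 33 tested genes of meiotic prophase was called by edgeR (median log2 fold change -0.08), with 5 at an unadjusted p under 0.05. DESeq2 called none either, and 1 was called lower by edgeR with the replicate block. The summed level of the list was still lower in every CM library, at 2968 to 3177 CPM in WT and 1755 to 2644 CPM in CM. *Sycp3*, a synaptonemal complex gene, was at 24.7, 35.2 and 37.5 CPM in WT and 18.9, 47.1 and 38.3 CPM in CM, with the groups overlapping. *Stag3*, the meiotic cohesin subunit, was at 892, 803 and 682 CPM in WT and 548, 650 and 432 CPM in CM (-0.54 ± 0.25, edgeR adjusted p = 0.135). *Spo11*, which makes the meiotic double-strand breaks, had a log2 fold change of -0.93 ± 0.24, just under the fold threshold.

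From pachytene onward the list medians were lower. Of 23 genes of pachytene spermatocytes and the meiotic divisions 2 fell, *Pgk2* and *Adam3*, with a list median of -0.59. That count is near the 5.9% of all tested genes called lower. *Ldhc*, the sperm lactate dehydrogenase, was at 1821, 3757 and 4069 CPM in WT and 525, 3088 and 2815 CPM in CM without passing the test. Of 20 regulators of spermatid transcription and RNA 5 fell (median -0.63). *Sox30*, a spermatid transcription factor, was at 150, 173 and 190 CPM in WT and 62.6, 84.9 and 72.8 CPM in CM (-1.22 ± 0.23, edgeR adjusted p = 0.0159). *Rfx2* and *Klhl10* fell by 1.02 ± 0.25 and 1.20 ± 0.27 (*Rfx2* was at -0.99 ± 0.25 with the replicate block, under the fold threshold), while *Tdrd6*, a germ granule gene and the most abundant of the list, was at -0.53 ± 0.26 and did not pass. *Crem*, the master activator of spermatid genes, was at -0.87 ± 0.40 and did not pass either.

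Of 41 genes of round spermatids and the acrosome 13 fell and none rose (median -0.98). All CM libraries lay below all WT libraries for 33 of them, against 3691 of all 16378 tested genes. *Acsbg2*, an acyl-CoA synthetase of testis, was at 778, 604 and 517 CPM in WT and 198, 236 and 178 CPM in CM (-1.64 ± 0.26, edgeR adjusted p = 0.0151). *Adam5*, a sperm surface gene and the most abundant of the list, fell by 1.10 ± 0.32 on the log2 scale. *Izumo1*, the sperm protein that binds the egg, fell from a mean of 122 to 60.5 CPM. *Acr*, the acrosomal protease, was at -0.85 ± 0.30 and did not pass.

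Of 41 genes of elongating spermatids and the flagellum 22 fell and none rose (median -1.09). All CM libraries lay below all WT libraries for 34, against the same 3691 of 16378 tested genes. *Gapdhs*, the glyceraldehyde phosphate dehydrogenase of the flagellum, was at 2742, 2787 and 2917 CPM in WT and 895, 1068 and 991 CPM in CM (-1.52 ± 0.23, edgeR adjusted p = 0.0151). *Odf2*, an outer dense fibre gene, went from 9035, 6092 and 6649 CPM to 4087, 3555 and 2696 CPM (-1.07 ± 0.29). The protamine gene *Prm2* fell by 1.27 ± 0.31 on the log2 scale, whereas *Prm1*, at 910, 1358 and 3910 CPM in WT and 114, 1233 and 1945 CPM in CM, overlapped between the groups.

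Without CM 1, 14 of the elongating and 10 of the round spermatid genes were called lower, and without WT 1 the counts were 9 and 8. Both lists had no call without WT 2, WT 3 or CM 3, as had all the other lists below, and with the replicate block 26 and 19 genes fell. The summed level of the elongating spermatid list ran from 52229 to 62157 CPM in WT and from 19109 to 31621 CPM in CM.

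Many genes of the somatic cells of the testis were higher. Of 20 Leydig cell genes 14 rose and none fell (median 2.26), among them the steroidogenic genes *Cyp11a1*, *Cyp17a1*, *Hsd3b1*, *Hsd3b6*, *Hsd17b3* and *Star*. *Hsd3b6*, the hydroxysteroid dehydrogenase of adult Leydig cells, was at 53.9, 47.0 and 25.6 CPM in WT and 396, 143 and 384 CPM in CM (2.86 ± 0.45, edgeR adjusted p = 0.0151). *Star*, which brings cholesterol into mitochondria, was at 121, 42.4 and 33.7 CPM in WT and 292, 148 and 227 CPM in CM. The defining markers *Insl3* and *Lhcgr* overlapped between the groups and were not called. *Insl3* was at 0.582, 4.62 and 5.49 CPM in WT and 3.36, 7.97 and 15.2 CPM in CM, higher in CM for each replicate number, and with the replicate block it was called higher (1.54 ± 0.35, edgeR adjusted p = 0.0040). *Lhcgr* was at 47.9, 2.28 and 2.14 CPM in WT and 31.1, 7.21 and 17.0 CPM in CM. The summed level of the list was 604 to 947 CPM in WT and 2472 to 4960 CPM in CM. It counted 13 genes without CM 1 and 15 without WT 1.

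Of 24 Sertoli cell genes 10 rose and none fell (median 1.15). *Clu*, the list's most abundant gene, which encodes a secreted chaperone, was at 268, 177 and 210 CPM in WT and 932, 478 and 764 CPM in CM (1.73 ± 0.31, edgeR adjusted p = 0.0157). *Trf*, the transferrin gene, rose from 23.7, 12.1 and 15.8 CPM to 79.1, 61.4 and 91.9 CPM (2.16 ± 0.31). The defining transcription factors *Sox9* and *Gata4* rose by 1.38 ± 0.34 and 1.46 ± 0.30, while *Wt1*, another of them, was at 0.82 ± 0.28 and did not pass.

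Of 24 genes of peritubular myoid cells and stroma 13 rose and 1 fell (median 1.55). *Sparc*, a matrix protein gene, was at 233, 106 and 103 CPM in WT and 1374, 330 and 483 CPM in CM (2.31 ± 0.57, edgeR adjusted p = 0.0235), and collagens of types I, III, IV and VI rose with it. Of the contractile genes of myoid cells, *Acta2* and *Myh11* were at 1.17 ± 0.43 and 0.71 ± 0.45 and did not pass, although *Acta2* was called higher with the replicate block (1.03 ± 0.33, edgeR adjusted p = 0.0233). *Actg2*, a smooth muscle actin, fell from 320, 330 and 354 CPM to 43.5, 106 and 102 CPM (-2.0 ± 0.35). In purified cells *Actg2* was at a mean of 41.6 CPM in WT round spermatids and 13.8 CPM in those labelled CM, and at 0.90 CPM in WT spermatocytes. Which cells carried it in whole testis was not tested. Of 14 tested endothelial genes 4 rose, with *Cldn5* at 1.80 ± 0.41, and 2 fell, *Flt1* and *Vwf*, at -1.22 ± 0.31 and -1.01 ± 0.31. With the replicate block *Vwf* was at -0.98 ± 0.23, under the fold threshold.

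Immune genes rose in a larger share than those of any other list. Of 23 genes of macrophages and antigen presentation 19 rose (median 2.02). *Cd74*, the invariant chain of MHC class II, was at 5.76, 8.41 and 3.63 CPM in WT and 75.7, 36.9 and 30.6 CPM in CM (3.00 ± 0.44, edgeR adjusted p = 0.0151). *Csf1r*, the receptor for macrophage colony-stimulating factor, was at 42.6, 25.0 and 18.2 CPM and 176, 64.8 and 139 CPM. *C1qa*, a complement gene of resident macrophages, was at 8.38, 6.90 and 5.96 CPM and 33.9, 16.6 and 38.0 CPM. The list's most abundant gene, *Aif1*, was lower, at 444, 616 and 459 CPM in WT and 103, 347 and 286 CPM in CM (-1.04 ± 0.41, edgeR adjusted p = 0.0906, called lower by DESeq2 and with the replicate block). In purified cells *Aif1* was at a mean of 83.5 CPM in WT round spermatids and 36.3 CPM in those labelled CM, and at 2.06 CPM in WT spermatocytes. Which cells carried it in whole testis was not tested.

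Of 14 tested genes of the interferon response and MHC class I 10 rose (median 1.72). *H2-K1*, a class I heavy chain gene, was at 30.9, 34.7 and 30.9 CPM in WT and 108, 70.9 and 108 CPM in CM, and *B2m*, the class I light chain gene, was at 5.30, 5.38 and 1.86 CPM and 26.5, 13.7 and 32.8 CPM. Few markers of blood and epididymis had enough counts to be tested. Of 8 red blood cell and 10 epididymis genes 2 and 3 could be tested, and edgeR called none, with 0 and 1 at an unadjusted p under 0.05. DESeq2 called 1 epididymis gene higher. The globin genes *Hba-a1* and *Hba-a2* had no counts in any library, and *Alas2*, the haem synthesis gene with the highest level of the red blood cell list, was at 42.4, 20.3 and 20.0 CPM in WT and 23, 23 and 21.3 CPM in CM. *Wfdc10*, the epididymis gene with the highest level, was at 0.83 ± 0.34 and did not pass. The summed levels of the Leydig, Sertoli, peritubular and interferon lists moved with the genotype without overlap, and those of the macrophage and endothelial lists overlapped. *Aif1* alone held most of the macrophage sum in WT, at 444 of 742, 616 of 926 and 459 of 592 CPM. The part of these lists in the other differences was not tested.

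**Figure D3:**
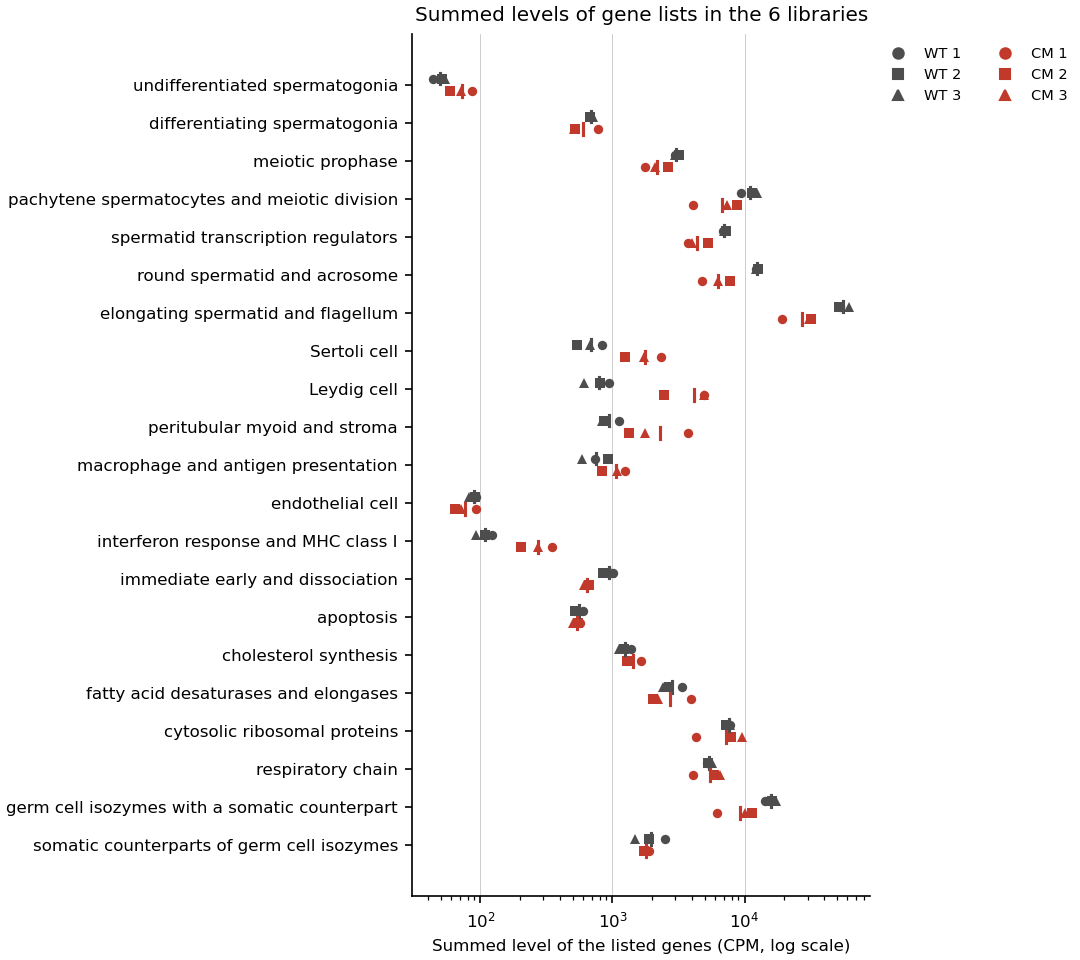
Summed level of each gene list in CPM (log axis) for each library, WT in grey above CM in red, with a marker shape for each replicate number and a short line for the group mean. The meiotic prophase, pachytene, spermatid regulator, round spermatid and elongating spermatid sums are lower in every CM library. The Leydig, Sertoli, peritubular and interferon sums are higher in every CM library, and the apoptosis, ribosomal and respiratory sums overlap.

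Metabolic lists were mixed, with the calls on the upward side. Of 22 genes of cholesterol synthesis 12 rose (median 1.16), led by *Dhcr7*, which makes the last step to cholesterol, at 15.3, 12.8 and 13.4 CPM in WT and 82.9, 37.7 and 56.9 CPM in CM (2.09 ± 0.31, edgeR adjusted p = 0.0151). *Fdft1*, the squalene synthase gene with the highest level of the list, was at -0.54 ± 0.23 and did not pass. Of 18 genes of fatty acid desaturation, elongation and activation 7 rose and 1 fell (median 0.85). *Fads1*, *Fads2*, *Scd1* and *Scd2*, which put double bonds into fatty acids, rose by 2.50 ± 0.36, 2.82 ± 0.56, 2.87 ± 0.60 and 2.69 ± 0.53. *Acsl1*, an acyl-CoA synthetase, fell from 2408, 1907 and 1634 CPM to 490, 822 and 545 CPM.

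Germ cell isozymes and their somatic counterparts differed in direction. Of 17 germ cell isozymes 4 fell and none rose (median -0.51), and of 16 somatic counterparts 8 rose and none fell (median 1.44). On the X chromosome lie 5 of these 16 counterparts and 3 of the 8 that rose, against none of the germ cell isozymes. *Hk1*, whose spermatogenic form anchors to the sperm tail, fell from 2135, 2022 and 2039 CPM to 638, 738 and 503 CPM (-1.72 ± 0.25). *Gapdh*, the somatic partner of *Gapdhs*, went the other way, from 5.79, 2.76 and 2.61 CPM to 22.2, 9.57 and 17.6 CPM (2.12 ± 0.44, edgeR adjusted p = 0.0170). *Ldha*, the most abundant of the somatic partners, was at 1505, 1171 and 864 CPM in WT and 810, 1032 and 831 CPM in CM and did not pass.

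Stress and death lists changed less. Of 26 tested apoptosis genes 6 rose (median 0.79), among them *Bax*, *Apaf1*, *Casp8* and *Fas*. *Casp8*, an initiator caspase, was at 2.07, 1.45 and 1.02 CPM in WT and 6.10, 3.96 and 6.82 CPM in CM. *Mdm2*, the p53 ubiquitin ligase gene with the highest level, was at -0.35 ± 0.22 and did not pass. The count was 1 without WT 1, 9 with the replicate block and 11 without CM 2. Of 18 tested genes of the immediate early and dissociation response 4 rose, with *Socs3* at 2.56 ± 0.44 and *Myc* at 2.60 ± 0.59, and 3 fell, with the heat shock genes *Hspa1b* and *Hspa1a* at -1.87 ± 0.31 and -1.37 ± 0.28. *Dnajb1*, a co-chaperone gene with the highest level of the list, was at -0.54 ± 0.22 and did not pass. The number that rose was 8 with the replicate block.

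Of 80 cytosolic ribosomal protein genes 3 rose (median 0.13), *Rps4x*, *Rpl10* and *Rpl36a*, and all 3 lie on the X chromosome, as do 4 of the 80. *Rps4x* was at 7.24, 6.48 and 5.40 CPM in WT and 25.3, 20.9 and 46.4 CPM in CM (2.26 ± 0.35, edgeR adjusted p = 0.0151). *Rplp0*, the most abundant of the list, was at -0.68 ± 0.33 and did not pass. Without CM 1, 11 genes of the list were called higher. Of 83 respiratory chain genes 10 rose (median 0.11), and these included the 3 tested X-linked members *Cox7b*, *Ndufa1* and *Ndufb11*. *Cox8a*, a subunit of cytochrome c oxidase, rose by 1.69 ± 0.33, and *Atp5b*, the ATP synthase gene with the highest level, was at -0.18 ± 0.23 and did not pass. The lists were drawn up by symbol prefix and hold a few related genes.

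The X chromosome differed from the autosomes as a whole. Of 626 tested X-linked genes 199, or 31.8%, were called higher and 4.15% lower, against 15 and 5.85% of 15109 autosomal genes, on which the highest share for one chromosome was 18.3% (chromosome 6). Genes of the X chromosome are silenced during meiosis and largely stay repressed in spermatids, as background. Over all tested X-linked genes, the median log2 ratio to the WT mean was 0.57, 0.29 and 0.61 in CM 1, 2 and 3, and between -0.04 and 0.03 in the WT libraries. The autosomal medians in CM were -0.01, 0.00 and 0.01. In the other genotypes the X medians were -0.11, 0.03 and -0.01 in CTCF HET and 0.03, 0.30 and 0.24 in BORIS KO, scaled together with the same WT libraries. Of the 199 X-linked genes that rose, 64.8% had a summed level under 1 CPM in purified WT round spermatids and spermatocytes, against 55.6% of the autosomal genes that rose. Whether the X-linked rise came with the somatic genes was not tested.

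**Figure D4:**
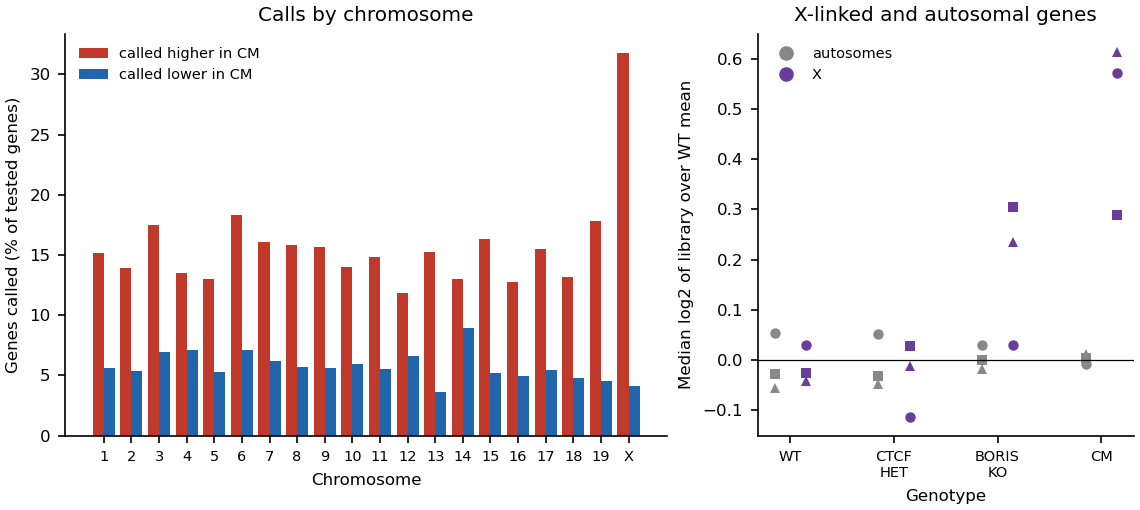
Left, share of the tested genes of each chromosome called higher (red) or lower (blue) in CM, in percent. Right, median log2 ratio of each library to the WT mean over 626 X-linked genes (purple) and 15109 autosomal genes (grey), with a marker shape for each replicate number. The X chromosome stands at 31.8% called higher, and the 3 CM libraries have X medians from 0.29 to 0.61.

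Calls were also counted by annotated gene class. Of 15022 protein-coding genes 16.0% rose and 5.73% fell, of 255 lincRNA genes 7.45 and 5.49%, and of 243 processed transcripts 7.82 and 11.9%. Of 90 snoRNA genes, which guide the modification of ribosomal RNA, 16, or 17.8%, rose, close to the 15.3% of all tested genes, and none fell. *Snord88c* rose from a mean of 45.4 to 179 CPM (1.98 ± 0.25) and *Snora61* from 204 to 1527 CPM (2.90 ± 0.93). These genes lie in introns of host genes, and the use of strand in counting is not stated, so their reads cannot be told apart from those of other transcripts there.

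Purified WT cells show where in spermatogenesis the called genes are expressed. Of the 848 genes called lower that had a level there, 68.5% were more than 2-fold higher in WT round spermatids than in WT spermatocytes and 2.36% were more than 2-fold higher in spermatocytes, against 25.4 and 24.7% of all tested genes. Of the genes called higher, 56.6% were under a summed 1 CPM in these cells, against 22.8% of all tested genes and 12.2% of those called lower. The purified cells came from separate libraries of polyA RNA, so levels were compared only within them.

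In the purified cells labelled CM, the targeted gene did not follow its label. *Ctcf* was at 45.9, 30.3 and 28.5 CPM in WT round spermatids and at 169, 48.7 and 39.1 CPM in those labelled CM, and in spermatocytes at 33.2 and 31.5 CPM and at 83.0, 33.1 and 32.6 CPM. *Rltpr* did follow it, at most 1.12 CPM in WT round spermatids and at least 30.6 CPM in those labelled CM. In round spermatids, 1323 genes called higher in whole testis and 859 called lower had a level in WT or CM. Of the first, 86.6% had a mean above WT in those labelled CM (median log2 ratio 1.12). Of the second, 91.9% had a mean below WT (-0.70). Of 13059 tested genes with such a level, 50.3% stood above and 49.7% below. A gene low in WT entered these shares only through its CM level. In spermatocytes labelled CM the shares were 59.7% of 996 and 39.7% of 695 genes, against 47.5 and 52.5% of 11628 tested genes. The genes called lower in whole testis had a median log2 ratio of 0.23 there. X-linked genes had a median log2 ratio of 0.52 in the round spermatids and 1.53 in the spermatocytes labelled CM, against 0.01 and -0.04 for autosomal genes. In these spermatocytes 98.4% of the 182 X-linked genes counted, out of 626 tested, were above WT. X-linked and autosomal genes were counted where the WT and CM means summed to at least 1 CPM. A gene absent in WT thus entered only through a high CM level, which by itself raises these medians and shares.

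The peak lists, 1 for each antibody and genotype and so with no replicate error, were read at the starts of 15745 tested genes with an annotated start in mm9. RNA polymerase II (Pol2) peaks lay within 1 kb of a start for 20.6% of the genes called higher in the WT list and for 46.0% in the CM list. For the genes called lower the shares were 66.4 and 61.5%, and for genes not called 60.5 and 67.9%. H3K4me3, a mark of active promoters, lay at 49.2% of the genes called higher in WT and at 68.4% in CM, while the genes called lower stood at 72.0 and 72.7% and those not called at 74.5 and 78.7%. Of the genes called higher with a Pol2 peak in either list, 55.6% had it in CM alone and 0.789% in WT alone. For the genes called lower these shares were 4.13 and 11.1%, and for genes not called 13.2 and 2.57%.

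CTCF peaks differed less between called and other genes. A WT CTCF peak lay within 1 kb of a start for 35.3% of the genes called higher, 27.3% of those called lower and 34.4% of those not called, and a BORIS peak for 15.3, 13.1 and 18.9%. Of the genes with a WT CTCF peak there, 60.8% of those called higher, 58.5% of those called lower and 65.0% of the others kept none in CM. Read from the promoters, 13.5% rose and 4.35% fell of 1012 genes that had CTCF with BORIS and kept none, against 15.6 and 6.59% of 9768 genes with neither peak. The genes with the highest share of rises were the 718 that had CTCF without BORIS and kept it, at 22.0%.

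**Figure D5:**
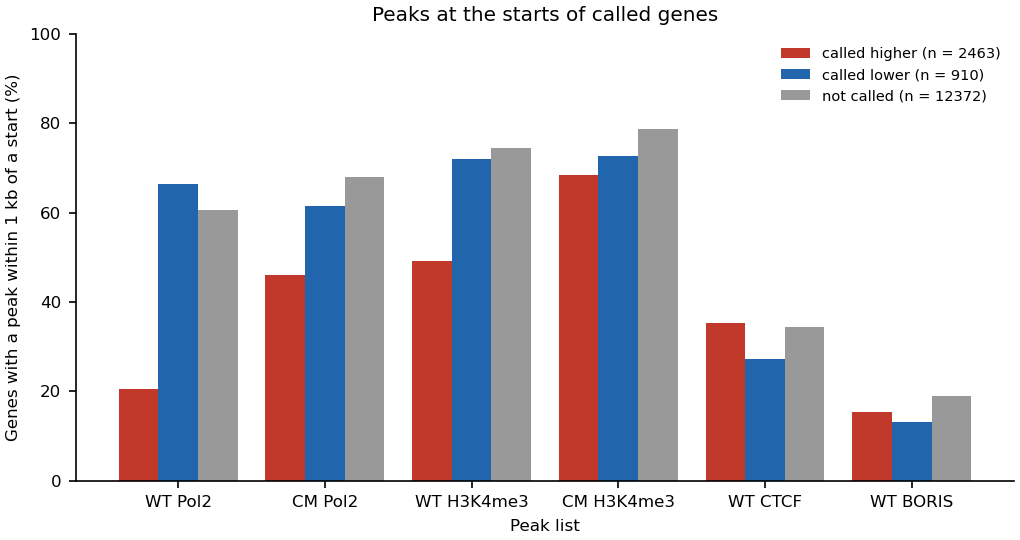
Share of the genes called higher (n = 2463), called lower (n = 910) and not called (n = 12372) that had a peak of each list within 1 kb of an annotated start, in percent. Pol2 stands at 20.6% in WT and 46.0% in CM for the genes called higher and at 66.4 and 61.5% for those called lower, and CTCF and BORIS differ less between the 3 groups.

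Single loci displayed by the study were chosen by its authors with these samples in view, so their counts are no independent evidence. Of 16 such genes 8 rose and 7 fell, and *Fert2* was at -0.83 ± 0.31 (edgeR adjusted p = 0.0771). *Prss50*, a testis serine protease whose promoter lost its CTCF peak in the CM list (sequence above), was at 9.05, 5.17 and 8.01 CPM in WT and 2.27, 1.21 and 0.722 CPM in CM (-2.33 ± 0.45, edgeR adjusted p = 0.0161). *Mfi2*, which encodes melanotransferrin, and *Prss38*, another serine protease gene, fell by 1.81 ± 0.28 and 1.64 ± 0.28 on the log2 scale with their CTCF peaks kept. *Gal3st1*, *Dhrs4*, *Spns2* and *Ntn5* fell by 1.86 ± 0.47, 1.57 ± 0.35, 1.53 ± 0.34 and 1.87 ± 0.42.

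*Kit*, the stem cell factor receptor, was at 31.9, 36.8 and 16.9 CPM in WT and 355, 80.3 and 189 CPM in CM (2.86 ± 0.53, edgeR adjusted p = 0.0159), and *Abca1*, a cholesterol exporter, was at 229, 202 and 92.2 CPM and 1833, 478 and 1248 CPM. *Kit* is also expressed by Leydig cells. The X-linked *Irak1*, *Cask* and *Ssr4* rose by 2.55 ± 0.50, 2.39 ± 0.34 and 2.42 ± 0.40 with their CTCF peaks lost, and *Ankrd52* rose by 1.94 ± 0.48 with its peak kept. A lost peak stood beside both rises and falls at these loci, and a kept peak as well. Peaks called kept only overlapped a peak of the CM list by at least 1 bp. Their heights were 2613 in WT and 219 in CM at *Mfi2*, 3270 and 192 at *Prss38* and 2156 and 113 at *Ankrd52*. Heights were not scaled between the lists, and the paper describes *Ankrd52* as having lost CTCF and BORIS at its promoter. A link between binding and expression was not tested.

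The last comparison asked whether CM differed from the sum of the changes in CTCF HET and BORIS KO, by the interaction of both alleles over the 12 whole testis libraries. By edgeR, 0 of 17185 genes were called (0%), with a smallest adjusted p of 0.473 and 1713 genes at an unadjusted p under 0.05. DESeq2 called 27 genes, 8 above and 19 below the sum. With the replicate block edgeR called 4 genes below the sum, *4933402P03Rik*, *Odf3b*, *Sik1* and *Spata3*, named because they were the ones called, and DESeq2 480, with 236 above and 244 below.

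Set side by side against the same WT libraries, the genes called higher in CM had a median log2 ratio of 1.49 there, of 0.58 in BORIS KO and of 0.19 in CTCF HET. The genes called lower had -1.19, -0.39 and -0.15 in the same order. These genes were selected by their change in CM, and the 3 ratios share their control. For *Kit* the WT libraries averaged 27.5 ± 10.0 CPM and the CM libraries 203 ± 137 CPM (SD, n = 3 each), with CTCF HET at 36.0 ± 21.3 CPM and BORIS KO at 56.1 ± 13.9 CPM between them. *Prss50* averaged 7.14 ± 1.96 CPM in WT and 1.37 ± 0.780 CPM in CM, and the single mutants stood at 6.48 ± 0.457 CPM (CTCF HET) and 5.10 ± 1.31 CPM (BORIS KO).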

How the data were processed

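RNA-seq libraries of whole testis (rRNA-depleted total RNA) and of purified round spermatids and spermatocytes (polyA RNA), and peak lists for CTCF, BORIS, Pol2 and H3K4me3, were analysed. The authors deposited raw counts per gene, and the counting tool, annotation and use of strand are not given in the sources used here. CTCF and BORIS peaks were deposited with a signal, the peak height, and Pol2 and H3K4me3 peaks with a score from the authors' peak caller. All were on mm9, in 1 list for each antibody and genotype, with replicates pooled where there were any. H3K4me3 had only 1 ChIP sample for each genotype. The submitters' processing notes name Bowtie, Bowtie2, TopHat2, Cufflinks 2.0.0, STAR and DESeq2.

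WT and CM libraries, 3 of each, were compared with the robust quasi-likelihood test of edgeR 4.0.16 in R 4.3.3 after filterByExpr (minimum count 10, minimum total 15) and TMM scaling. P-values were adjusted by Benjamini-Hochberg over all genes tested, and a gene was called at an adjusted p under 0.05 and a fold change over 2. The interaction of both alleles was fitted over the 12 libraries of 4 genotypes. The scripts were tested on simulated data. Ratios in purified cells used a pseudocount of 0.5 CPM, and a peak belonged to a gene within 1 kb of a start, with an overlap of 1 bp between lists. Alternatives were DESeq2 1.42.0, RLE factors, no filter, all genotypes in 1 fit, stricter and no thresholds, each library left out, a 2 kb window and a 50% overlap. DESeq2 with the replicate block, and the block without each pair of libraries, were chosen after seeing the data. Python 3.11.15, pandas 2.3.3 and scipy 1.17.1 were used for the rest.

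Replicate numbers come from the library titles. Libraries with the same number deviated together from their group means in all 18 pairs (correlation 0.121 to 0.631, and 0.163 to 0.536 for WT with CM). Pairs with different numbers ran from -0.568 to 0.408, with 11 of 36 over 0.1. WT 2 correlated more with CM 3 (0.209) than with CM 2 (0.163). The numbers were taken as pairs by a limit of 0.1 in every same-numbered pair, which does not settle the pairing of numbers 2 and 3. Pairing entered only the fits with the replicate block. The main fit left it out, so its counts, SE and adjusted p do not use the pairing. The blocked value is given beside a named gene whose call it changes and, for the list counts, there or in the closing section.

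Named genes were the targeted genes, the 10 called genes with the smallest p and the 5 with the largest fold in each direction (mean of at least 10 CPM in the higher group), genes called in the interaction, and of each list the member with the highest level and the called members with the smallest p. Other list members were named after their values were seen, as were the snoRNA genes. The comparison and the lists were chosen with earlier results of these data known. Each library is an independent preparation of 4 mice. Intervals on counts cover counting error only. A total of 25 symbols had been turned into dates in the table and were not named.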

Additional observations from a re-analysis of the deposited data

Results flagged for a closer look

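For 7 named genes with a mean of at least 1 CPM in either genotype, every spermatocyte library labelled CM lay on the opposite side of WT from the whole testis libraries, and for *C3* so did every round spermatid library. The difference between the cell preparations was not tested. *C3*, higher in whole testis, had a log2 ratio of CM over WT of -0.68 in round spermatids and -0.96 in spermatocytes. *Clu*, *Fads1* and *Cox8a*, also higher in whole testis, stood at -0.60, -0.42 and -0.27 in spermatocytes. *Acsl1*, *Gm16387* and *Gapdhs*, lower in whole testis, stood at 1.90, 1.03 and 1.02 in spermatocytes. In round spermatids *Clu*, *Fads1* and *Cox8a* stood at 0.31, 1.48 and 0.57 and *Acsl1*, *Gm16387* and *Gapdhs* at -0.74, -0.99 and -0.98, the same direction as in whole testis. Most of these levels were low: *C3* was at a mean of 1.5 CPM in WT round spermatids, and *Gapdhs* at 6.01 CPM in WT and 12.7 CPM in CM-labelled spermatocytes, against 281 and 142 CPM in round spermatids.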

How the results depend on the processing

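The 3468 calls of the fit without the replicate block, 2502 higher and 966 lower, ranged from 3 to 4383 when 1 library was left out. Of these, 1 to 3303 were higher and 2 to 1080 lower. They fell to 11, 3 and 4 without WT 2, WT 3 or CM 3. Every called gene that could be tested kept its direction in each setting, but these genes were selected by their change in the same libraries. With the replicate block, which takes libraries of the same number as pairs, edgeR called 4420 genes. DESeq2 with the block called 1517 lower, and the block gave 5490 calls, 3849 higher and 1641 lower, without the libraries numbered 2, and 1524 lower without those numbered 3. At an adjusted p under 0.001 edgeR called 0 genes, 0 higher and 0 lower, as its smallest adjusted p was 0.00225, and DESeq2 called 1635, 1123 higher and 512 lower. The interaction, with 0 calls by edgeR and in each fit without 1 library (0 to 0, above and below the sum), had 27 calls by DESeq2, 8 above and 19 below, 4 with the block, all 4 below, and 480 by DESeq2 with the block, 236 above and 244 below. The cause of these differences was not tested.

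Among the genes named in the text the block changed the call of *Aif1*, then lower, *Insl3* and *Acta2*, then higher, and *Vwf* and *Rfx2*, then under 2-fold, and no other. It counted 16 Leydig, 15 peritubular, 21 macrophage, 11 Sertoli, 11 interferon, 5 endothelial, 8 fatty acid, 4 ribosomal and 10 somatic counterpart genes as higher, and 3 pachytene, 4 spermatid regulator, 1 macrophage, 1 endothelial and 1 ribosomal gene as lower. *Etv5* went under 2-fold with DESeq2. *Alas2*, at -0.30, ranged from -0.50 to 0.14 when 1 library was left out, reversed without WT 1, and reversed to 0.13 with the block without the libraries numbered 1, and was called in neither. With 3 libraries a genotype and CM 1 apart, a difference that misses the threshold here may still exist.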
